A study of Mus musculus with 50 samples.

Results

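The comparison described here sets the 10 arrays of polysomal RNA labelled Ras against the 10 labelled bleo/Neo, 20 of the 50 arrays of the series, over the 18193 genes that the platform annotation names by a single symbol. Both populations were made by retroviral infection of young adult mouse colon (YAMC) cells, an epithelial line from the Immorto-mouse. That mouse carries a temperature-sensitive viral large T antigen behind an interferon gamma inducible promoter. Ras cells received the bleo vector and activated Ras (RasV12), whereas bleo/Neo cells received the 2 vectors without an oncogene. The mp53/Ras, mp53 and uninfected YAMC populations, 10 arrays each, are used where a difference needs a further point of comparison. All groups were expanded at 33 °C with interferon gamma, moved to 39 °C without it for 48 h so that large T was off, and then kept for 24 h in 0% serum. The labels describe a single polyclonal population of each kind, and they do not say whether replicates were separate cultures or which promoter drives RasV12. The p-values therefore measure the spread between these samples, and an effect of Ras cannot be told apart from a difference between 2 derivations.

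Ras proteins are small GTPases at the inner face of the plasma membrane, and the V12 form stays bound to GTP. Active Ras signals through the RAF, MEK and ERK kinases, through phosphoinositide 3-kinase and through Ral exchange factors. ERK drives Ets, Egr and AP-1 transcription factors, and it also induces the phosphatases and Sprouty and Spred proteins that dampen the same cascade. Polysomal RNA is the mRNA that carries several ribosomes, so a level here reflects how much of a transcript there was as well as how heavily ribosomes loaded it. In RNA from a whole culture, fewer cells that carry a transcript and less of it per cell cannot be told apart.

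All levels are log2 intensities of 1 probe set per gene, and differences are log2 values of Ras minus bleo/Neo, each given ± its standard error from limma (n = 10 arrays per group). A gene is said to have risen or fallen where its Benjamini-Hochberg adjusted p was under 0.05 over 12883 tested genes. The tested genes lay above the median of the table (6.44) on at least 10 of the 50 arrays. The number of arrays limits the precision, since arrays give no read depth.

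1 Ras array and the whole vector population stand apart, and both touch the results. The array labelled Ras 10 lay 0.489 (root mean square over tested genes) from the mean of the other Ras arrays and 0.275 from the mp53 mean, while the other 9 lay 0.170 to 0.282 from the Ras mean. The array labelled mp53 10 lay nearer the Ras mean (0.266) than its own (0.418). Whether these 2 arrays were exchanged was not tested, and every difference from mp53 cells and every count that uses mp53 cells rests on both labels. Differences and counts computed without the array labelled Ras 10 are given in brackets, as "without Ras 10", beside the leading genes and the gene lists. Of the 195 tested genes named here 179 passed the test on all arrays. Without Ras 10 none of the 179 lost the call, turned direction or moved by over 1.5 times on the log2 scale, and Ccng1, Fcgbp and Vim gained it. All 10 bleo/Neo arrays lacked Y-linked transcripts that the Ras arrays carried: Eif2s3y ranged from 7.49 to 8.74 in Ras cells and from 3.46 to 3.92 in bleo/Neo cells, where the lowest value of the table is 3.04. The mean of Eif2s3y was 8.38 in YAMC, 8.96 in mp53 and 7.94 in mp53/Ras cells, so that bleo/Neo cells were the population apart. Xist was lower in Ras cells, by 0.74 ± 0.25. Its mean was above the median of the table in both groups, at 8.81 in Ras and 9.55 in bleo/Neo cells. Of the epithelial markers, Krt8 (12.69 to 13.05 in Ras and 11.88 to 12.61 in bleo/Neo) and Epcam (7.90 to 8.75 in Ras and 7.62 to 8.50 in bleo/Neo) were above the median of the table. The epithelial cadherin gene Cdh1 was not, at 3.82 to 4.10 in Ras and 3.89 to 4.31 in bleo/Neo cells. Nor were the intestinal genes Cdx1 (at most 4.77 in Ras and 4.93 in bleo/Neo), Cdx2 (6.35 and 6.38) and Vil1 (5.38 and 5.60). The Epcam result depended on the probe set. A second Epcam probe set had means of 6.13 in Ras and 6.41 in bleo/Neo cells, below the median of the table. It differed by -0.28 ± 0.08, against 0.315 ± 0.10 for the probe set used. Of 29 colon epithelial differentiation markers on the array 10 were tested, among them Fcgbp, which encodes a mucus protein (8.96 to 10.23 in Ras and 9.32 to 10.05 in bleo/Neo), and 3 of them were higher and 3 lower in Ras cells (4 and 2 without the array labelled Ras 10).

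In Ras cells 5301 of the 12883 tested genes (41.1%) differed from bleo/Neo cells, 2544 of them higher (19.7%) and 2757 lower (21.4%). At least 2-fold differences were found for 269 higher genes (2.09%) and 253 lower genes (1.96%). All 10 Ras arrays lay above all 10 bleo/Neo arrays for 426 genes (3.31%) and below them for 450 genes (3.49%). Without the array labelled Ras 10 there were 294 genes at least 2-fold higher (2.28%) and 281 lower (2.18%), together 4.46%, and the non-overlapping genes numbered 678 (5.26%) and 773 (6%). The median difference over all tested genes was -0.01. Among the 5310 genes below the filter, 21 were at least 2-fold higher and 34 lower when the fit was run on all genes.

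The genes at least 2-fold apart were then set against the other populations. All 10 bleo/Neo arrays lay below the 40 other arrays for 82 of the 269 higher genes (30.5%) and above them for 50 of the 253 lower genes (19.8%), against 0.877% and 0.629% of all tested genes. The genes had been chosen for their difference from bleo/Neo cells, so these shares are a description only. A further test asked which genes separated Ras cells from bleo/Neo, YAMC and mp53 cells in the same direction, each at an adjusted p under 0.05. It was passed by 853 genes higher in Ras (6.62%) and 843 lower (6.54%), among them 155 of the 269 higher genes (57.6%) and 132 of the 253 lower genes (52.2%). Without the array labelled Ras 10 it was passed by 2115 genes in all, and without that array and the array labelled mp53 10 by 2168, against 1696 with all arrays. The shares past all 3 tests rest partly on the same arrays and are also only a description. At least 2-fold against each of the 3 populations were 76 genes higher (0.59%) and 59 lower (0.458%).

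Among the genes that separated Ras cells from all 3 other populations, Hmga2, which encodes an architectural chromatin protein of embryonic tissue, led the named rises by its margin over the closest of the 3 (3.13). Its level was 8.58 at the lowest, 12.65 at the median and 12.80 at the highest in Ras cells, and 7.26, 7.44 and 8.11 in bleo/Neo cells. The lowest Ras value is the array labelled Ras 10, and the other Ras arrays (12.33 or more) did not come near the bleo/Neo range. Hmga2 rose by 4.76 ± 0.37 (5.17 without that array), and Ras cells exceeded YAMC by 3.13 and mp53 cells by 3.22. Its 3 bright probe sets moved alike, from 3.90 to 4.78. Of 14 tested oncofetal genes, the group to which Hmga2 belongs, 6 were higher and 2 lower (7 and 2 without that array). The shares of all tested genes were 19.7% higher and 21.4% lower. Of the 14, Hmga2 alone was higher than each of the 3 populations, and against YAMC 1 was higher and 2 lower.

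Cadm1, an immunoglobulin-family adhesion molecule, had 6.46, 9.23 and 10.36 as its lowest, median and highest Ras values, against 4.72, 5.22 and 5.63 in bleo/Neo cells. It rose by 3.98 ± 0.32 (4.28 without Ras 10), and the groups did not overlap. Its 4 bright probe sets differed in size, from 0.59 to 3.98. Fgf7, the keratinocyte growth factor, had 6.21, 9.33 and 10.03 in Ras cells and 5.36, 5.59 and 6.02 in bleo/Neo cells, a rise of 3.46 ± 0.27 (3.78 without Ras 10). Ackr3, an atypical receptor that binds the chemokine Cxcl12, had 4.84, 7.46 and 7.84 in Ras cells and 4.01, 4.07 and 4.22 in bleo/Neo cells, a rise of 3.17 ± 0.26 (3.44 without Ras 10). The arrays of both genes stood apart, and in each the array labelled Ras 10 was the low one. Tnnt2, the cardiac form of troponin T, rose by 3.51 ± 0.24 (3.75 without Ras 10), and Aldh3a1, an aldehyde dehydrogenase, by 2.83 ± 0.25 (3.07 without Ras 10).

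In 3 of these genes the array labelled Ras 10 fell inside the bleo/Neo range and the other 9 did not. Ank, a membrane protein of pyrophosphate export, was at 5.92 on that array, against 5.62 to 5.97 in bleo/Neo cells, with a median of 9.11 over all Ras arrays. Ifi209, a member of the interferon-activated Ifi200 family, was at 4.89 there against 4.74 to 5.23 in bleo/Neo cells, with a Ras median of 7.94. The collagenase gene Mmp13 was at 3.89 there against 3.87 to 4.88 in bleo/Neo cells, with a Ras median of 7.60. Ank rose by 3.03 ± 0.27 (3.35 without the array), Ifi209 by 2.84 ± 0.27 (3.16) and Mmp13 by 3.12 ± 0.37 (3.52). Mctp2, a membrane protein with calcium-binding C2 domains, was at 5.87 on the array labelled Ras 10, below the bleo/Neo range of 6.10 to 7.72, with a Ras median of 9.36. It rose by 2.35 ± 0.31 (2.70 without the array).

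**Figure D1:**
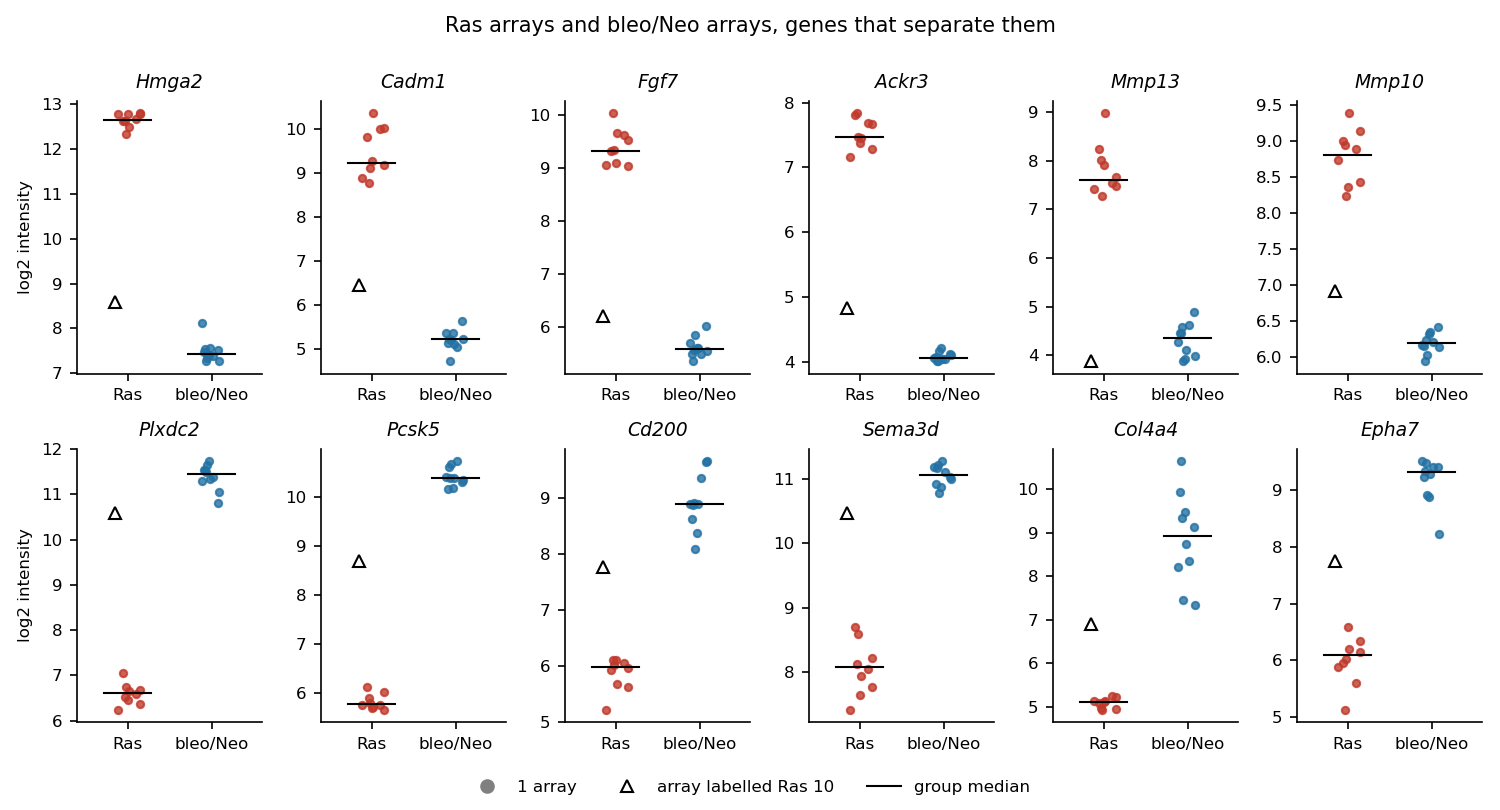
Log2 intensity of 12 genes on each array, with the Ras arrays left and the bleo/Neo arrays right in each panel; the array labelled Ras 10 is an open triangle and the short line is the group median. Hmga2 sits at 12.65 at the Ras median and 7.44 at the bleo/Neo median, and in most panels the triangle lies between the other Ras arrays and the bleo/Neo arrays.

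On the lower side, Plxdc2, a plexin-domain membrane protein, had 6.24, 6.62 and 10.60 in Ras cells and 10.80, 11.44 and 11.73 in bleo/Neo cells. The value of 10.60 is the array labelled Ras 10, and without it the highest Ras value was 7.04. Plxdc2 fell by 4.40 ± 0.37 (4.80 without that array). The proprotein convertase gene Pcsk5, whose product cuts secreted precursors, had 5.66, 5.78 and 8.69 in Ras cells and 10.16, 10.40 and 10.74 in bleo/Neo cells. It fell by 4.32 ± 0.24 (4.61 without Ras 10), by 2.92 against YAMC and by 2.67 against mp53. The Ras arrays of both genes lay below all bleo/Neo arrays.

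Cd200, a membrane glycoprotein that restrains myeloid cells through its receptor, had 5.22, 5.98 and 7.76 in Ras cells and 8.08, 8.89 and 9.66 in bleo/Neo cells, a fall by 2.89 ± 0.26 (3.08 without Ras 10). Sema3d, a secreted guidance cue, had 7.41, 8.08 and 10.47 in Ras cells and 10.78, 11.07 and 11.28 in bleo/Neo cells, a fall by 2.77 ± 0.23 (3.01 without Ras 10). Neither gene had overlapping groups. Also lower than in all 3 populations were the receptor phosphatase gene Ptprz1 (fell by 2.37 ± 0.30, 2.70 without Ras 10), the microfibril gene Mfap5 (fell by 2.54 ± 0.23, 2.68 without Ras 10) and Id4, an inhibitor of basic helix-loop-helix factors (fell by 2.11 ± 0.28, 2.33 without Ras 10). On the array labelled Ras 10, Mfap5 (6.67) and Id4 (8.72) lay within the bleo/Neo range and Ptprz1 (9.68) above it, while the other 9 Ras arrays lay below it in all 3. Bex1, a small brain-expressed protein, was at 9.20 on that array, above the bleo/Neo range of 5.32 to 7.15, and fell by 1.86 ± 0.42 (2.35 without Ras 10). Kcnt2, a sodium-activated potassium channel, was at 7.24 there, within the bleo/Neo range of 5.83 to 7.71, and fell by 1.96 ± 0.24 (2.24 without Ras 10). Other bright probe sets moved less for Plxdc2 (-1.75 at the least) and Id4 (-0.81).

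The genes in which the vector population stood alone read differently. Zic1, a zinc-finger factor of neural and mesodermal development, had 8.17, 8.46 and 8.70 in Ras cells and 3.44, 3.63 and 4.10 in bleo/Neo cells, and its mean was 8.80 in YAMC cells. Bgn, the proteoglycan biglycan, had 12.41, 12.66 and 12.73 in Ras cells and 8.02, 8.59 and 9.35 in bleo/Neo cells, with 12.94 in YAMC. Hoxa11, a homeobox factor, had 9.01, 9.31 and 9.54 in Ras cells and 5.34, 5.60 and 7.21 in bleo/Neo cells, with 9.08 in YAMC. Ras cells were above bleo/Neo cells by 4.82 ± 0.20, 3.96 ± 0.10 and 3.53 ± 0.13 for these 3 genes, but differed from YAMC by -0.34, -0.32 and 0.23. Gpm6a, a neuronal membrane glycoprotein, stood apart in the other direction, with 7.01, 7.35 and 8.20 in Ras cells, 11.70, 12.19 and 12.39 in bleo/Neo cells. Its mean was 6.95 in YAMC, and Ras cells differed from YAMC by 0.50. Leaving out the array labelled Ras 10 moved these 4 differences by less than 0.05. Rps4l, which encodes a ribosomal protein of the small subunit, had 9.26, 9.73 and 10.08 in Ras cells and 4.01, 4.41 and 5.07 in bleo/Neo cells, with 10.22 in YAMC. Ras cells were above bleo/Neo cells by 5.25 ± 0.13 (5.21 without Ras 10) and differed from YAMC by -0.52. Hook1, a linker of cargo to microtubules, had 4.76, 4.92 and 5.43 in Ras cells and 7.58, 7.84 and 8.62 in bleo/Neo cells, a fall by 2.96 ± 0.16 that was -0.61 against YAMC.

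A further 4 of the largest rises and 3 of the largest falls without overlap are the following. Clca3a1, of the family of calcium-activated chloride channel regulators and on the list of colon markers, had 6.07, 8.03 and 8.82 in Ras cells and 3.66, 3.78 and 4.80 in bleo/Neo cells, a rise of 4.03 ± 0.24 (4.23 without Ras 10), and of 1.66 over YAMC. Csgalnact1, an enzyme of chondroitin sulfate synthesis, rose by 3.80 ± 0.10, with bright probe sets from 1.06 to 3.80, and exceeded YAMC by 0.28. Myl9, a myosin light chain of smooth muscle, rose by 3.60 ± 0.28 but differed from YAMC by -1.87. The class I antigen gene H2-Q5 rose by 3.58 ± 0.14, while a second bright probe set was at -0.49 and the difference from YAMC was -0.36. Apela, which encodes a peptide ligand of the apelin receptor, fell by 2.87 ± 0.17 (-0.33 against YAMC). Uchl1, a ubiquitin hydrolase, fell by 2.85 ± 0.18 (-1.65 against YAMC), and Npr3, the clearance receptor of natriuretic peptides, by 2.78 ± 0.23 (-2.23 against YAMC), with a second probe set of Npr3 at -0.77.

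Plac8, a small cysteine-rich protein, had 9.52, 11.20 and 11.48 in Ras cells and 5.15, 5.56 and 6.14 in bleo/Neo cells, a rise of 5.54 ± 0.23 (5.71 without Ras 10). Its mean was 9.94 in YAMC, so that Ras cells exceeded YAMC by 1.15, and they exceeded mp53 cells by 1.63. Prkar2b, which encodes a regulatory (RII beta) chain of the cyclic AMP-dependent kinase, rose by 4.34 ± 0.19 (4.50 without Ras 10) and exceeded YAMC by 1.64 and mp53 cells by 1.44, with bright probe sets from 0.99 to 4.61. The potassium channel gene Kcnk1 had 4.98, 5.21 and 5.49 in Ras cells and 10.28, 10.86 and 11.03 in bleo/Neo cells. It fell by 5.58 ± 0.20 (5.61 without Ras 10). YAMC cells (mean 7.21) lay between the 2 groups, whereas mp53 cells had a mean of 5.58, from which Ras cells differed by -0.36, a difference that did not pass the test.

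**Figure D2:**
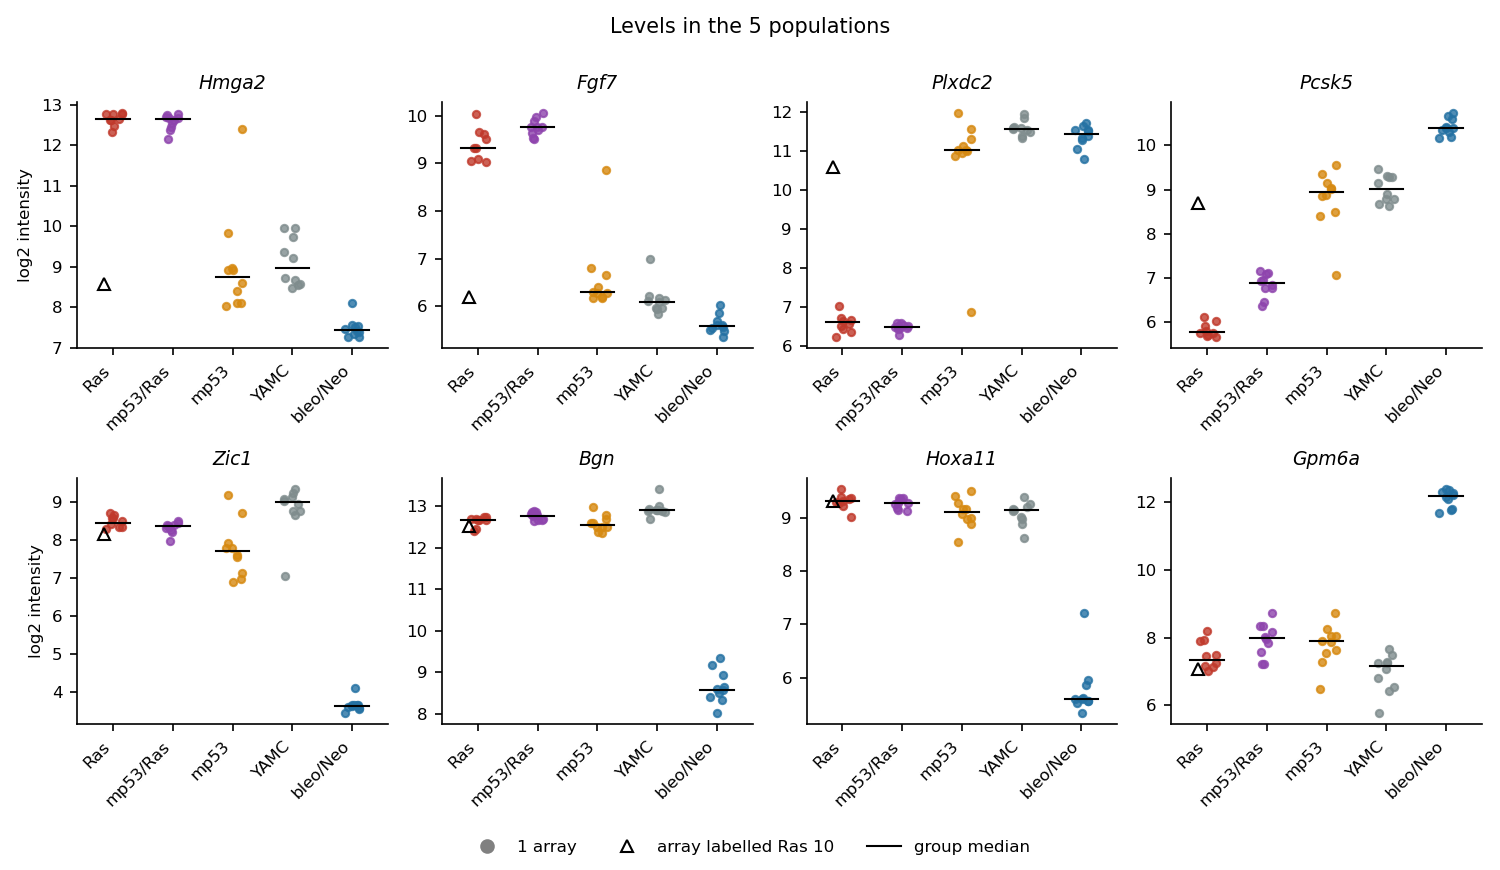
Log2 intensity on all 50 arrays for 4 genes that separated Ras cells from all 3 populations without Ras (top) and 4 in which bleo/Neo cells stood alone (bottom); each point is an array, short lines are group medians, and the open triangle is the array labelled Ras 10. The single high mp53 point of Hmga2 (12.42) is the array labelled mp53 10. The mean of Hmga2 was 12.25 over Ras arrays and 12.58 over mp53/Ras arrays, and for the bottom genes all bleo/Neo points lie beyond the points of the other populations.

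The genes of the ERK cascade and its feedback were taken from a list of 64, of which 58 were tested. The counts of this and the later lists stand beside the shares of all tested genes, 19.7% higher and 21.4% lower (20.5% and 22.8% without the array labelled Ras 10). Of the 58, 30 rose and 7 fell, a median difference of 0.26 against -0.01 over all genes. Without the array labelled Ras 10 the counts were 31 and 8. In 19 members Ras cells were higher than each of bleo/Neo, YAMC and mp53, and in 5 they were lower.

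Of the inhibitors, Spry4 had 6.76, 7.61 and 8.01 in Ras cells and 6.21, 6.58 and 6.70 in bleo/Neo cells, a rise of 1.04 ± 0.10 (1.13 without Ras 10) with no overlap. Spry2 rose by 0.99 ± 0.16 and Spred1 by 0.75 ± 0.12. Dusp6, the phosphatase that acts on ERK in the cytoplasm, had a median of 11.76 in Ras cells and 10.51 in bleo/Neo cells, and rose by 0.94 ± 0.27. The array labelled Ras 10, at 8.94, was below every bleo/Neo array (9.92 to 11.04), and the rise was 1.22 without it. Dusp5, the nuclear ERK phosphatase, rose by 0.66 ± 0.11. Members of the same family that mainly act on stress kinases went the other way or did not pass: Dusp16 fell by 0.69 ± 0.10 and Dusp8 by 0.25 ± 0.09, and Dusp10 differed by 0.11. For Dusp8 and Dusp10 the result depended on the probe set. Other bright Dusp8 probe sets were at -0.86 ± 0.19 and 0.19 ± 0.07, and a second bright Dusp10 probe set was at -0.26 ± 0.09. Dusp1, the immediate-early phosphatase of several MAP kinases, fell by 0.30 ± 0.12.

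Of the transcription factors, Elk3, an Ets factor, had 9.04, 10.07 and 10.42 in Ras cells and 7.15, 7.87 and 8.38 in bleo/Neo cells, and rose by 2.14 ± 0.15 (2.25 without Ras 10). Another bright Elk3 probe set differed by -0.06. Fosl1, the AP-1 subunit Fra-1, had 8.41, 10.64 and 10.99 in Ras cells and 8.21, 8.73 and 10.07 in bleo/Neo cells, and rose by 1.66 ± 0.24 (1.89 without Ras 10). The groups overlapped only through the array labelled Ras 10, at 8.41. The AP-1 subunits did not move together: Fosl2 fell by 0.36 ± 0.10 and Jund by 0.77 ± 0.11, while Fos (-0.06), Jun (-0.25) and Junb (0.10) did not pass. A second bright Jund probe set differed by 0.03. Etv4 (0.82 ± 0.17), Egr1 (1.02 ± 0.23), Egr3 (0.45 ± 0.07) and Myc (0.93 ± 0.17) rose. The cyclin gene Ccnd1, whose product carries cells through G1, had 12.94, 13.19 and 13.40 in Ras cells and 11.62, 12.08 and 12.28 in bleo/Neo cells, a rise of 1.15 ± 0.10 (1.18 without Ras 10).

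**Figure D3:**
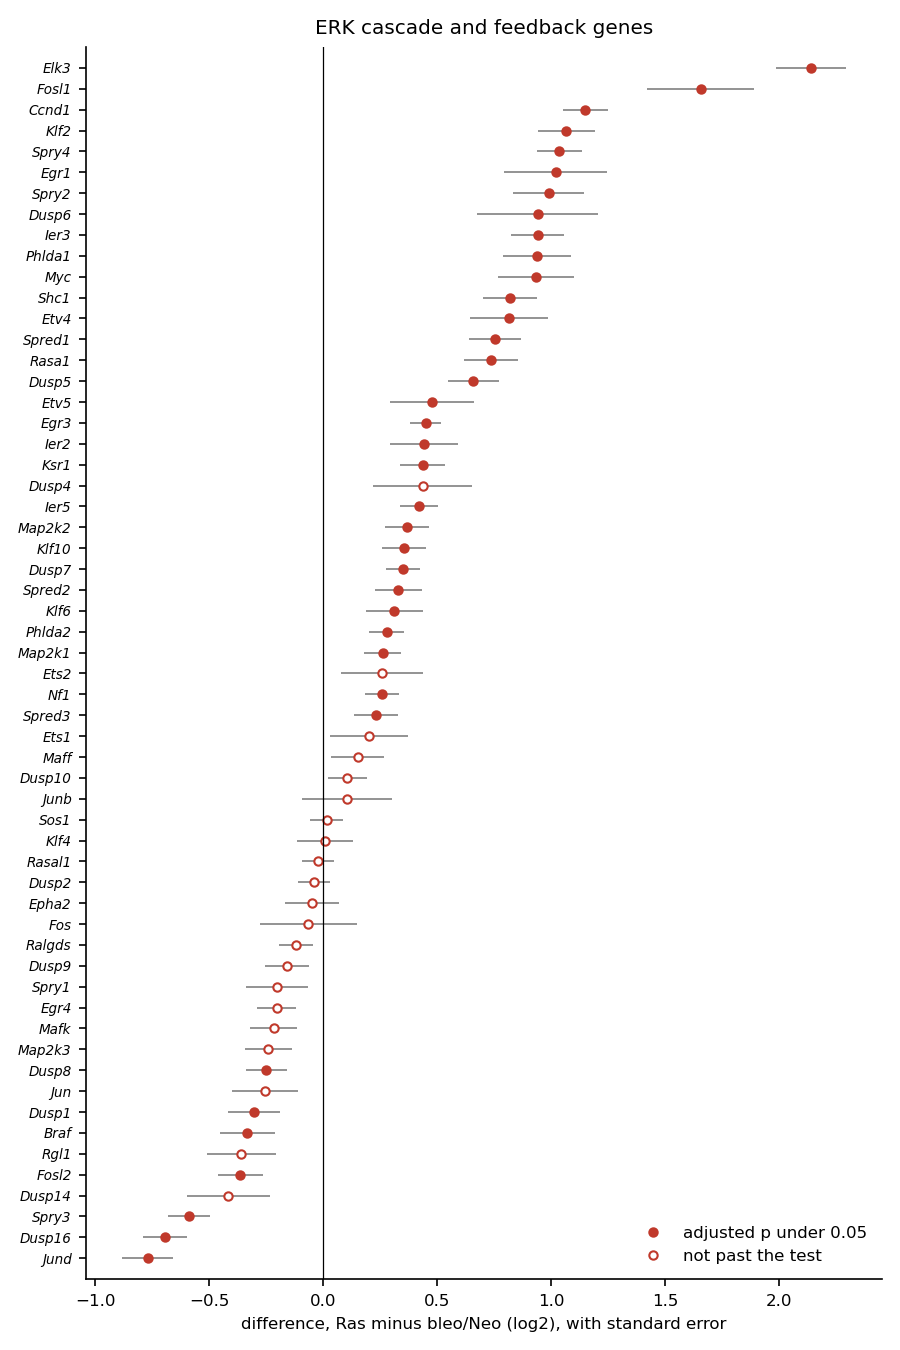
Difference between Ras and bleo/Neo cells (log2, Ras minus bleo/Neo, bars are the standard error of the fit) for the 58 tested genes of the ERK cascade and its feedback, in order of size; filled points passed the test. The points run from -0.77 for Jund to 2.14 for Elk3, with 30 filled points above 0 and 7 below.

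In the EGF family 3 of 16 tested genes rose and 3 fell (5 and 4 without Ras 10), so that 37.5% passed the test, against 41.1% of all tested genes. Hbegf, a ligand of the EGF receptor, rose by 0.82 ± 0.16, and the receptor inhibitors Errfi1 (1.04 ± 0.14) and Lrig1 (1.29 ± 0.13) rose as well. A further bright Lrig1 probe set differed by -0.08. The ligand gene Nrg1 had 6.41, 6.70 and 7.54 in Ras cells and 7.81, 8.01 and 8.52 in bleo/Neo cells, a fall by 1.32 ± 0.10 (1.40 without Ras 10). Erbb3, a receptor for neuregulins, fell by 1.02 ± 0.13, although another probe set was at 0.38, and Egfr fell by 0.34 ± 0.11. Among fibroblast and insulin-like growth factors and their relatives, 10 of 32 rose and 9 fell (10 and 10 without Ras 10). Vegfc, the lymphatic endothelial growth factor, had 5.71, 8.26 and 8.88 in Ras cells and 4.05, 4.27 and 4.45 in bleo/Neo cells, a rise of 3.81 ± 0.29 (4.07 without Ras 10), and of 1.62 over YAMC. Igf1 rose by 2.77 ± 0.16 over bleo/Neo and by 0.38 over YAMC. Igfbp2, an IGF-binding protein, fell by 1.48 ± 0.42 (1.91 without Ras 10). It was at 11.13 on the array labelled Ras 10 and at most 7.10 on the other Ras arrays.

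Matrix proteases and their inhibitors were split by family. Of 30 tested genes 9 rose and 8 fell (9 and 9 without Ras 10), a median of -0.005. The matrix metalloproteinase genes that changed mostly rose and the Adamts and convertase genes that changed fell. Mmp10, a stromelysin, had 6.92, 8.81 and 9.39 in Ras cells and 5.94, 6.19 and 6.42 in bleo/Neo cells, a rise of 2.41 ± 0.15 (2.59 without Ras 10) without overlap. Mmp3, a further stromelysin, had 5.98, 7.40 and 8.07 in Ras cells and 6.08, 6.17 and 6.42 in bleo/Neo cells, a rise of 1.19 ± 0.16 (1.35 without Ras 10). The value of 5.98 is the array labelled Ras 10, and without it the groups did not overlap. Plaur, the urokinase receptor, rose by 0.46 ± 0.15 and the inhibitor gene Timp1 by 0.29 ± 0.09. The gelatinase gene Mmp2 rose by 2.80 ± 0.10 but differed from YAMC by -0.39. Mmp17 fell by 1.12 ± 0.10, Adamts5 by 1.72 ± 0.20, Adamts1 by 1.28 ± 0.15 and Pcsk6 by 1.21 ± 0.14.

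The promoters of Mmp13, Mmp10, Mmp3 and Plaur, which rose, hold a motif of AP-1, the factor to which Fosl1 belongs. The sequences are from RefSeq (GRCm38.p6) and run 5′ to 3′ on the strand of the gene from 120 bases before the transcription start to 30 after it. Capitals mark the letters TGANTCA, and both strands were searched, on which this motif reads alike. The Mmp13 stretch is chr9:7272394-7272543 (plus strand), Mmp10 is chr9:7502222-7502371 (plus), Mmp3 is chr9:7445702-7445851 (plus) and Plaur is chr7:24462363-24462512 (plus).
Mmp13: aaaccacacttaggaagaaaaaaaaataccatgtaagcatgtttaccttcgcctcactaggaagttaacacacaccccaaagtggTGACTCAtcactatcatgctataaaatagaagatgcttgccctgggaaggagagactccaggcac
Mmp10: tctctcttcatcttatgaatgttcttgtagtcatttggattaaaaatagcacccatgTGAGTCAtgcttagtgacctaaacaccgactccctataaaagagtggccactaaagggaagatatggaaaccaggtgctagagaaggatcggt
Mmp3: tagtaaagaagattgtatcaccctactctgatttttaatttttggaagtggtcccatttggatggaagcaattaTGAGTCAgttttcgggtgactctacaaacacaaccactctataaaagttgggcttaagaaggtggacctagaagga
Plaur: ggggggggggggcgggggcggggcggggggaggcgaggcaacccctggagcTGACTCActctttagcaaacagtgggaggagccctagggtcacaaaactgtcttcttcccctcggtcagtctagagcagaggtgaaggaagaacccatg
The motif begins 35 bases before the start in Mmp13, 63 in Mmp10, 46 in Mmp3 and 69 in Plaur.

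Promoter windows, from 250 bases before to 50 after the start, were matched for 20 of the 30 protease genes. The motif was found in 5 of the 8 that rose (these 4 and Mmp7, which rose by 0.20 ± 0.07) and in none of the 12 that fell or did not pass. Over the whole comparison it was in 27 of 195 matched promoters of the genes at least 2-fold higher in Ras cells (13.8%) and in 6 of 183 of those at least 2-fold lower (3.28%). Its share was 5.22% of the 10364 tested genes with a promoter and 7.93% of all 27025 genes in the promoter table. Higher genes with the motif included the lectin-like receptor gene Olr1 (2.56 ± 0.28), the cytokine gene Il6 (2.36 ± 0.17), the membrane protein gene Emp1 (1.56 ± 0.15), which has it at 2 positions, and Procr, the protein C receptor (1.38 ± 0.13). It was in none of the 43 matched promoters of the ERK cascade and feedback list, and in none of the 36 of the glycolysis and hypoxia list. In the chemokine and cytokine list it was in 3 of the 10 that rose and in 3 of the 15 others. A match is a description of letters and not a measured binding site.

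**Figure D4:**
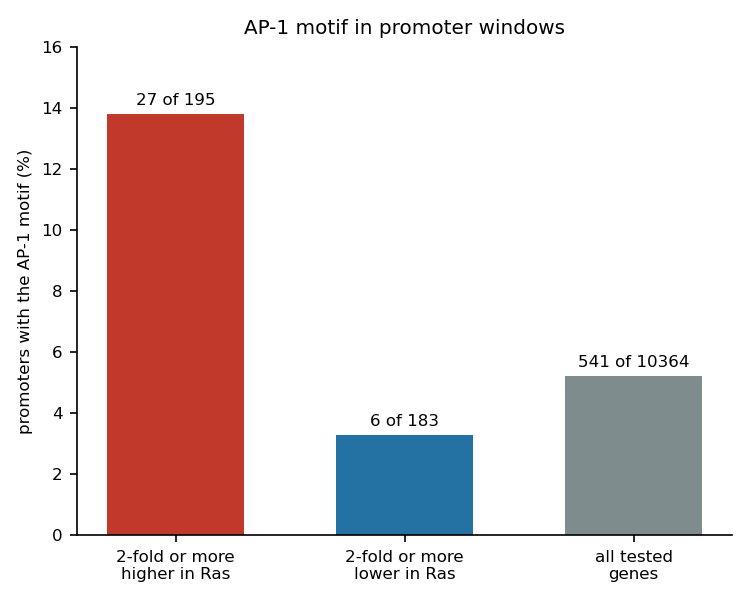
Share of promoter windows that hold the AP-1 motif, in percent, for genes at least 2-fold higher in Ras cells, genes at least 2-fold lower and all tested genes; bars start at 0 and carry the number of promoters with the motif over the number matched. The bars stand at 13.8, 3.28 and 5.22.

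In the basement membrane, the sheet of type IV collagen, laminin and nidogen under epithelia, 8 of 23 tested genes fell and 3 rose (9 and 3 without Ras 10). The type IV collagen chains differed by gene pair. Col4a4 had 4.94, 5.12 and 6.90 in Ras cells and 7.35, 8.93 and 10.65 in bleo/Neo cells, a fall by 3.60 ± 0.30 (3.78 without Ras 10). Its neighbour Col4a3 had 4.40, 4.56 and 4.87 in Ras cells and 5.88, 6.70 and 8.05 in bleo/Neo cells, a fall by 2.24 ± 0.17 (2.26 without Ras 10). Both were without overlap and differed from YAMC by -3.06 and -1.92. Col4a6 fell by 1.80 ± 0.15 and Col4a5 by 0.80 ± 0.13. The chains of the common network, Col4a1 (-0.10) and Col4a2 (0.16), did not pass. The laminin genes Lamb2 (fell by 0.88 ± 0.13) and Lamc1 (fell by 0.39 ± 0.14) were lower, and Col7a1, the anchoring fibril collagen, was higher (0.70 ± 0.06). The nidogen gene Nid1 had 6.32, 7.45 and 7.81 in Ras cells and 4.73, 4.97 and 5.27 in bleo/Neo cells, a rise of 2.31 ± 0.22 without overlap. A second bright Nid1 probe set differed by -0.10, and the difference from YAMC was -1.64.

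Of 38 fibrillar collagens and other matrix genes 10 rose and 11 fell (11 and 11 without Ras 10). Has2, which makes hyaluronan, had 7.65, 8.86 and 9.27 in Ras cells and 4.86, 5.01 and 5.38 in bleo/Neo cells, a rise of 3.71 ± 0.18 (3.83 without Ras 10), and of 2.01 over YAMC. Cemip, which takes part in hyaluronan breakdown, fell by 2.21 ± 0.32, with a second probe set at -0.02. Col1a2 rose by 3.40 ± 0.14 and Col8a1 by 2.48 ± 0.20 over bleo/Neo, but differed from YAMC by -1.22 and -2.06. The proteoglycan gene Dcn fell by 2.07 ± 0.19. Against YAMC 24 matrix genes were lower in Ras cells and 2 higher, and the median was -0.64, whereas it was 0.09 against bleo/Neo. Fibroblast and smooth muscle markers split likewise, with 4 of 11 higher than in bleo/Neo and 3 lower (4 and 4 without Ras 10). Their summed linear intensity ranged from 28264 to 62356 on Ras arrays and from 34806 to 55566 on bleo/Neo arrays. On YAMC arrays it ranged from 62580.5 to 85675.4, and the part of other cell types in these values was not tested.

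Of 32 tested chemokines and cytokines 15 rose and 5 fell (14 and 5 without the array labelled Ras 10), a median of 0.15. Il6 had 5.98, 6.60 and 7.43 in Ras cells and 4.03, 4.24 and 4.47 in bleo/Neo cells. Cxcl10, a ligand of Cxcr3, had 9.91, 11.24 and 11.75 in Ras cells and 7.75, 8.95 and 9.69 in bleo/Neo cells, a rise of 2.25 ± 0.20 (2.38 without Ras 10). Neither gene had overlapping groups. The CC chemokine genes Ccl9 (1.78 ± 0.14), Ccl7 (1.38 ± 0.12) and Ccl2 (0.73 ± 0.18) and the epithelial cytokine gene Tslp (1.83 ± 0.14) rose, and all 4 also exceeded YAMC. Cxcl12 rose by 2.35 ± 0.29 over bleo/Neo but was at -0.06 against YAMC, and a second bright probe set differed by -0.26. Il18 fell by 1.21 ± 0.10 and Il11 by 0.72 ± 0.09. Among interferon response and antigen presentation genes, 14 of 43 were higher and 9 lower (16 and 9 without Ras 10). Against YAMC 5 of these genes were higher in Ras cells and 16 lower. The median was -0.105 against YAMC and 0.151 against bleo/Neo. Cd74, the class II invariant chain, fell by 1.32 ± 0.24 and H2-Aa rose by 1.29 ± 0.27, although H2-Aa differed from YAMC by -2.02. Of 7 immune cell markers 2 were higher and 1 lower (2 and 0 without Ras 10), and Ptprc, the leukocyte antigen, stayed below the filter.

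Of 39 tested glycolysis and hypoxia genes 21 rose and 5 fell (22 and 5 without Ras 10), with a median of 0.42. Bnip3, a mitophagy receptor induced in hypoxia, had 9.57, 10.69 and 11.98 in Ras cells and 7.74, 8.11 and 8.31 in bleo/Neo cells, a rise of 2.65 ± 0.17 (2.78 without Ras 10). Among the genes of the pathway that rose were the glucose transporter gene Slc2a1 (1.18 ± 0.13), hexokinases Hk1 (0.78 ± 0.09) and Hk2 (0.90 ± 0.17), Pfkl (1.27 ± 0.14), the aldolases Aldoa (0.86 ± 0.10) and Aldoc (1.39 ± 0.19), Tpi1 (0.58 ± 0.07), Pgk1 (0.42 ± 0.06), Pgam1 (0.52 ± 0.06) and Ldha (0.61 ± 0.09). Ldhb, the other main lactate dehydrogenase chain, fell by 0.64 ± 0.17, with 4 bright probe sets from -1.02 to -0.64, and Pfkfb3, which makes an activator of phosphofructokinase, fell by 0.66 ± 0.15. Pdk1, which holds pyruvate back from mitochondria, had 8.85, 9.43 and 10.33 in Ras cells and 7.77, 8.11 and 8.82 in bleo/Neo cells, a rise of 1.32 ± 0.16 (1.39 without Ras 10) without overlap. Slc2a3, a further glucose transporter, rose by 1.65 ± 0.21 but differed from YAMC by -2.12. The transporters of lactate fell, Slc16a1 by 0.62 ± 0.15 and Slc16a3 by 0.55 ± 0.18, and Slc16a3 was 1.04 higher than in YAMC. Vegfa (0.23), Car12 (0.25) and Hif1a (0.18) did not pass, although a second bright Hif1a probe set was at 0.65 ± 0.10. Of 36 oxidative phosphorylation genes 7 were higher and 5 lower (9 and 7 without Ras 10), with a median of 0.003.

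The Bnip3 promoter shows a letter pattern of hypoxia factors, ACGTG, which was searched on both strands. The stretch is chr7:138909477-138909626 (GRCm38.p6, minus strand), with the motif of both strands in capitals.
Bnip3: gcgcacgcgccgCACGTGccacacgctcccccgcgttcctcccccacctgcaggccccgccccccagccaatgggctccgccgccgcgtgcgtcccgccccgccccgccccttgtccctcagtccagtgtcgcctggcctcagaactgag
The motif was in 12 of 20 matched promoters of the list's rising genes and in 9 of 16 of its other genes. In genes at least 2-fold higher its share (23.1%) was close to that of all tested genes (25%).

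**Figure D5:**
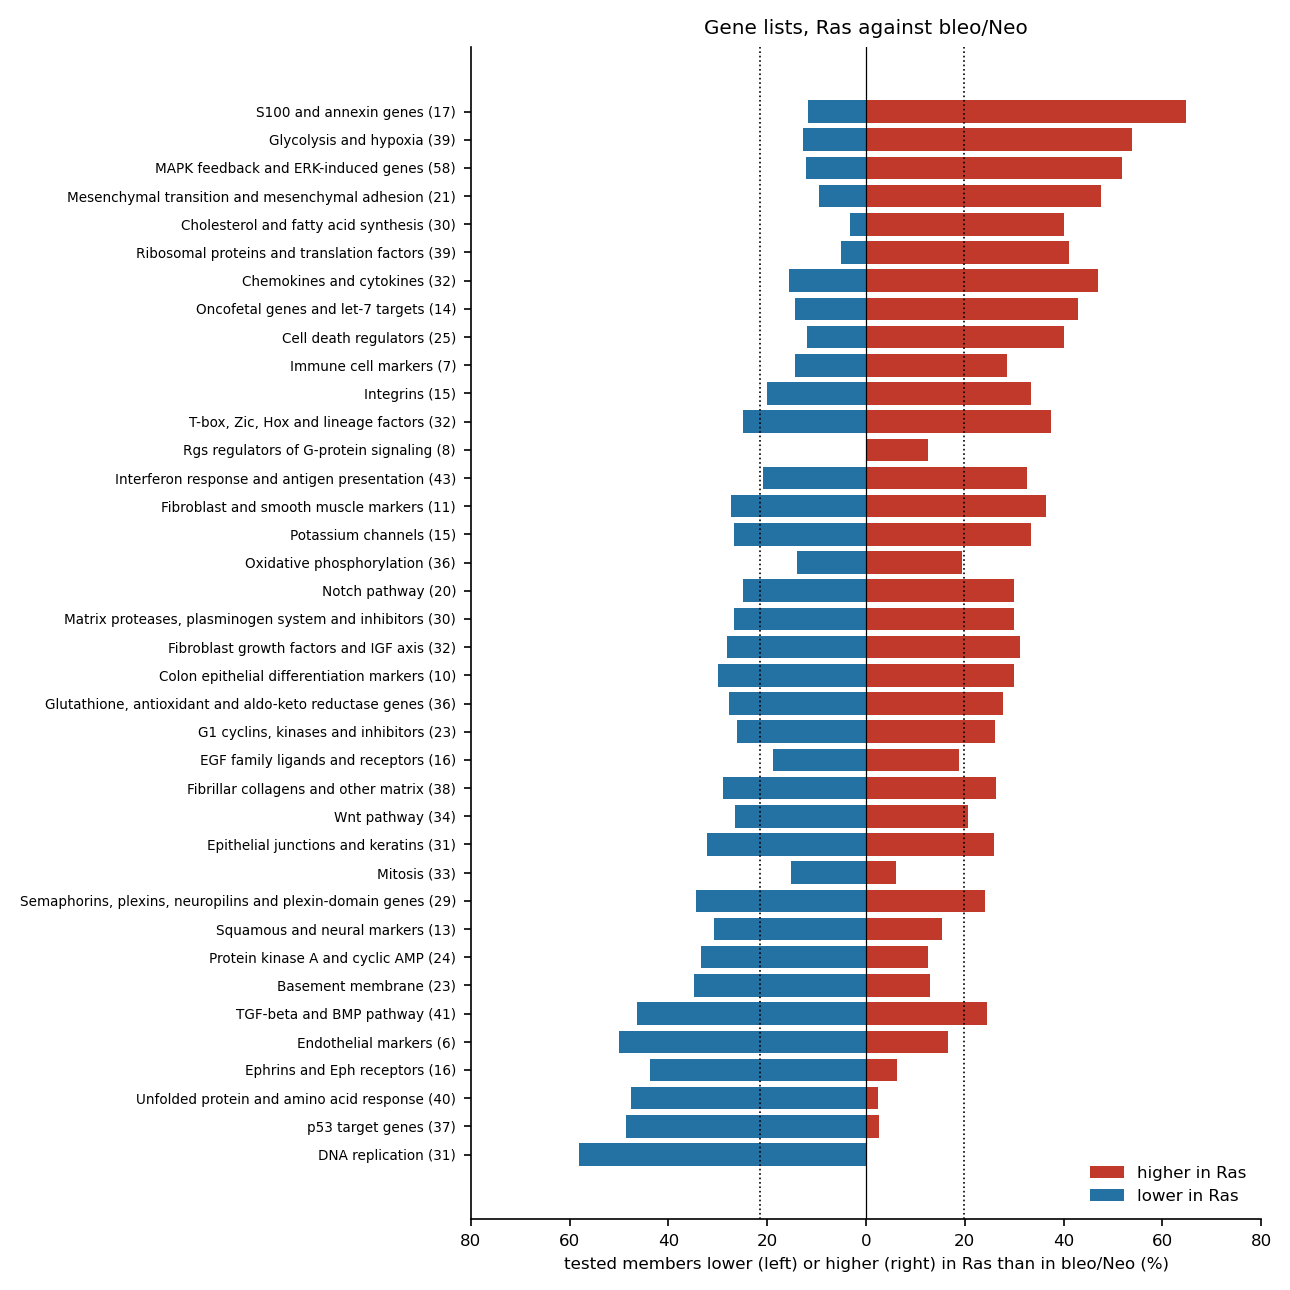
Share of the tested members of each gene list that were higher (right) or lower (left) in Ras cells than in bleo/Neo cells, in percent, with the number of tested members in brackets and dotted lines at the shares of all tested genes (19.7 higher, 21.4 lower). The DNA replication, p53 target, and unfolded protein and amino acid response lists extend left, and the S100 and annexin, glycolysis and hypoxia, and ERK lists extend right.

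In semaphorins, plexins and neuropilins 10 of 29 fell and 7 rose, counts that did not move without Ras 10, led on the rising side by the receptor gene Nrp2 (1.75 ± 0.16), a partner of class 3 semaphorins. Sema3b fell by 1.36 ± 0.15 and Sema4f by 1.40 ± 0.12. Of 16 ephrin and Eph genes 7 fell and 1 rose (6 and 1 without Ras 10). Epha7 had 5.13, 6.08 and 7.74 in Ras cells and 8.23, 9.31 and 9.51 in bleo/Neo cells, a fall by 3.01 ± 0.20 (3.18 without Ras 10). Its difference from YAMC was -0.54, and bleo/Neo cells exceeded YAMC by 2.47. The ligand gene Efnb1 fell by 0.84 ± 0.10. Of 15 integrins 5 were higher and 3 lower (4 and 3 without Ras 10): Itgb8, a subunit that activates latent TGF-beta, fell by 2.00 ± 0.25, and Itgb4 rose by 1.49 ± 0.31 but differed from YAMC by -0.37.

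Of 31 epithelial junction and keratin genes 8 were higher and 10 lower (9 and 10 without Ras 10). The partner keratins of simple epithelia rose, Krt8 by 0.58 ± 0.10 and Krt18 by 0.99 ± 0.14, and both exceeded YAMC, by 1.10 and 1.69. Krt19 (fell by 1.27 ± 0.24) and Krt7 (fell by 1.68 ± 0.17) were lower than in bleo/Neo but higher than in YAMC, by 0.93 and 0.74. The claudin gene Cldn15 fell by 2.51 ± 0.12, but all bleo/Neo arrays lay above the 40 other arrays, and Ras cells exceeded YAMC by 0.82. The scaffold gene Tjp3 fell by 1.69 ± 0.11 and differed from YAMC by -0.86. Of 21 mesenchymal genes 10 were higher and 2 lower (11 and 3 without Ras 10). Against YAMC 4 were higher and 7 lower, and the median was -0.12, whereas it was 0.22 against bleo/Neo. S100a4, a calcium-binding protein of motile cells, had 11.07, 12.61 and 12.83 in Ras cells and 8.12, 9.20 and 10.41 in bleo/Neo cells, a rise of 3.25 ± 0.25 (3.40 without Ras 10) without overlap. The transcription factor genes Twist2 (1.32 ± 0.16) and Snai2 (0.74 ± 0.12) rose and exceeded YAMC, whereas Cdh11 rose by 1.60 ± 0.22 over bleo/Neo and differed from YAMC by -0.55. Vim differed by 0.14 and did not pass (0.16 without the array labelled Ras 10, where it passed). Of squamous and neural markers, whose summed linear intensity was 2448 to 8067 on Ras arrays and 8805 to 13319 on bleo/Neo arrays, 4 of 13 were lower and 2 higher (4 and 4 without Ras 10), with the largest falls in Gpm6a and Stmn4. In both genes all bleo/Neo arrays lay above the 40 other arrays, and on YAMC arrays the marker sum was 1832 to 4029. Endothelial markers, with sums of 1044 to 1207 on Ras arrays and 1551 to 2043 on bleo/Neo arrays, were lower in 3 of 6 cases and higher in 1, Erg (0.23 ± 0.07), and Pecam1 and Cdh5 were below the filter. The endothelial sums were 1154 to 1409 on YAMC arrays.

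Of 41 TGF-beta and BMP genes 19 were lower and 10 higher (20 and 10 without Ras 10), a median of -0.27. The ligand genes Tgfb2 (fell by 1.28 ± 0.18) and Inhba (fell by 1.08 ± 0.11) were lower, while Tgfb1 (0.39 ± 0.09) and Tgfb3 (0.90 ± 0.13) were higher. Chrd, the BMP antagonist chordin, had 6.30, 6.63 and 6.72 in Ras cells and 8.14, 8.46 and 8.95 in bleo/Neo cells, a fall by 1.94 ± 0.08 (1.95 without Ras 10), and Nog fell by 0.80 ± 0.14. Ltbp1, which binds latent TGF-beta in the matrix, rose by 2.93 ± 0.11 without overlap and exceeded YAMC by 0.36. In the Notch pathway 5 of 20 genes fell and 6 rose (6 and 6 without Ras 10). The ligand gene Jag1 fell by 1.41 ± 0.11, with another probe set at -0.05, the receptor gene Notch3 by 0.73 ± 0.14 and the target gene Hey2 by 1.45 ± 0.13. In the Wnt pathway 9 of 34 fell and 7 rose (10 and 7 without Ras 10). Of all tested genes 41.1% passed, against 55% in the Notch and 47.1% in the Wnt list. Wnt11 had 7.77, 8.04 and 8.39 in Ras cells and 9.87, 10.81 and 11.25 in bleo/Neo cells, a fall by 2.65 ± 0.16 (2.69 without Ras 10), and Wnt5a rose by 1.76 ± 0.13, with 0.22 against YAMC.

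Of 31 DNA replication genes 18 were lower and 0 higher in the limma test (20 and 0 at an unadjusted p under 0.05, and 19 and 0 by the limma test without Ras 10), with a median of -0.26 and a largest fall of 0.52 ± 0.08, in the helicase subunit gene Mcm5. A further Mcm5 probe set was at -0.04. Against YAMC 6 of the replication genes were higher in Ras cells and 9 lower, with a median of -0.08. Of 33 mitotic genes 5 were lower and 2 higher (6 and 4 without Ras 10). Of 23 G1 cyclins, kinases and inhibitors 6 were higher and 6 lower (7 and 6 without Ras 10), and the retinoblastoma gene Rb1 fell by 0.61 ± 0.09. Of p53 target genes 18 of 37 fell and 1 rose (17 and 1 without Ras 10), a median of -0.20. Pmaip1, the BH3-only death protein Noxa, had 8.30, 8.73 and 9.84 in Ras cells and 10.64, 11.22 and 11.88 in bleo/Neo cells, a fall by 2.43 ± 0.21 (2.55 without Ras 10). Perp fell by 1.81 ± 0.30, Dram1 by 1.10 ± 0.11, Tigar by 0.81 ± 0.09 and Fas by 0.59 ± 0.12. Perp differed from YAMC by -0.40, which did not pass, and exceeded mp53 cells by 1.63. Other bright Tigar probe sets were at 0.01 and -0.01. Mdm2 (0.06) and Ccng1 (-0.14) did not pass, although Ccng1 passed without the array labelled Ras 10 (-0.15). In 7 members Ras cells were lower than each of bleo/Neo, YAMC and mp53. Among other death regulators Bcl2 (0.63 ± 0.12) and Cflar (0.84 ± 0.12) rose, and 10 of 25 rose in all, with 3 lower (10 and 3 without Ras 10).

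Of 40 genes that respond to unfolded protein or amino acid shortage, 19 were lower and 1 higher, with a median of -0.28. The chaperone gene Hspa5 fell by 0.35 ± 0.11, the degradation gene Herpud1 by 0.76 ± 0.17, and both chains of an amino acid transporter by similar amounts, Slc7a5 by 0.72 ± 0.12 and Slc3a2 by 0.63 ± 0.11. The array labelled Ras 10 was the highest Ras array for Herpud1 (10.99) and Slc7a5 (11.67), and 22 members fell without it. Of 30 genes that make cholesterol and fatty acids, 12 were higher and 1 lower (14 and 1 without Ras 10). Scd1, which makes monounsaturated fatty acids, had 9.83, 10.26 and 11.10 in Ras cells and 6.39, 7.07 and 7.45 in bleo/Neo cells, a rise of 3.31 ± 0.20 (3.37 without Ras 10), and of 0.92 over YAMC. Elovl6, which lengthens the same chains, rose by 1.20 ± 0.16 and Sqle by 0.67 ± 0.18. Of 39 genes of ribosomal proteins and translation factors, 16 were higher and 2 lower (19 and 1 without Ras 10), with a median of 0.11. Eif4e, the cap-binding factor, rose by 0.70 ± 0.14 and its inhibitor gene Eif4ebp2 by 0.59 ± 0.14, with other Eif4ebp2 probe sets as low as 0.13. Eif4ebp1 fell by 0.27 ± 0.10.

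Of 24 protein kinase A and cyclic AMP genes 8 were lower and 3 higher (9 and 3 without Ras 10). The inhibitor gene Pkia fell by 1.00 ± 0.22, the anchoring gene Akap12 by 1.01 ± 0.18 and the catalytic subunit gene Prkaca by 0.39 ± 0.10, while the cyclase gene Adcy7 rose by 1.03 ± 0.12. The other regulatory subunits, Prkar1a (-0.02), Prkar1b (0.03) and Prkar2a (-0.18), did not pass beside Prkar2b. A further bright Prkar1b probe set was at -0.87, and a second bright Prkaca probe set was at -0.06. Of 15 potassium channel genes 5 were higher and 4 lower. Kcnk2 rose by 2.50 ± 0.18 and Kcnn4, a calcium-activated channel, by 1.04 ± 0.17, and Kcnq5 fell by 1.62 ± 0.16. Of 17 S100 and annexin genes 11 were higher and 2 lower. Of 36 antioxidant and aldo-keto reductase genes 10 were higher and 10 lower. The counts of the potassium channel, S100 and annexin, and antioxidant lists were the same numbers without Ras 10. Sod3, the extracellular superoxide dismutase, had 6.95, 9.86 and 10.59 in Ras cells and 6.24, 6.77 and 7.99 in bleo/Neo cells, a rise of 2.69 ± 0.35 (2.98 without Ras 10). Akr1c14, a hydroxysteroid dehydrogenase, fell by 3.47 ± 0.17 and was at 0.02 against YAMC. Of 32 T-box, Zic, Hox and other lineage factors 12 were higher and 8 lower (13 and 7 without Ras 10), with Tbx20 (4.13 ± 0.22) and Hoxb9 (fell by 1.32 ± 0.11) among them.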

How the data were processed

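Polysomal RNA (5 µg per sample, polysome fractions of a sucrose gradient) was measured on 50 one-colour arrays, per the labels' protocols. The deposited value table holds linear intensity values that the authors made with RMA, per the submitters' processing notes; the version is not given in the sources used here, and the array medians (86.4 to 86.7) were nearly equal. Background correction and normalisation could therefore not be varied from the scanner level. Of 45037 probe sets with values, 34945 had 1 gene symbol, 932 had several and 9160 had none, and 34741 of the first were matched to current RefSeq symbols by gene ID. No value column was left unused (0).

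Values were log2 transformed, and each gene was represented by its brightest probe set. Genes above the table median on at least 10 arrays were fitted with limma 3.58.1 (R 4.3.3; 1 coefficient per group over all 50 arrays, eBayes with an intensity trend), with Benjamini-Hochberg adjustment over all tested genes. The fit was tested on simulated data. The genes named were drawn from the largest differences without overlapping arrays, those against all 3 other populations, those in which bleo/Neo stood furthest apart, the leading called members of each list, reference genes and markers; list members that repeat others are left out. Other genes were added by role after their values were seen. Members and lists were chosen with earlier results of these data known. Promoters came from RefSeq (GRCm38.p6), 1 window per gene. Alternatives covered arrays left out, the filter, probe set averaging, the variance prior, array weights, scaling and a replicate block.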

Additional observations from a re-analysis of the deposited data

Results flagged for a closer look

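For 202 genes named above, the 10 Ras arrays and the 10 bleo/Neo arrays were each searched for an array whose gap to its nearest neighbour exceeded the critical share of the group's range in Dixon's test for 10 values. Chance alone puts about 1 in 20 groups there. Of the 404 groups 108 had such an array, 84 of them among the Ras arrays, and in 81 of these it was the array labelled Ras 10. The values in brackets are the log2 intensities on the array that stood apart. The array labelled Ras 10 lay apart on the low side for Ackr3 (4.84), Aldh3a1 (5.89), Ank (5.92), Bcl2 (8.37), Cadm1 (6.46), Ccl2 (9.03), Ccl9 (6.42), Cflar (8.20), Dusp6 (8.94), Eif4e (10.09), Elk3 (9.04), Elovl6 (8.46), Emp1 (10.86), Etv4 (7.19), Fcgbp (8.96), Fgf7 (6.21) and Fosl1 (8.41). It lay equally on the low side for Has2 (7.65), Hbegf (7.86), Hmga2 (8.58), Ifi209 (4.89), Itgb4 (7.43), Kcnk2 (6.87), Kcnn4 (7.60), Krt18 (11.76), Krt19 (8.09), Krt7 (8.54), Ldha (12.55), Lrig1 (8.09), Mctp2 (5.87), Mmp10 (6.92), Mmp13 (3.89), Mmp3 (5.98) and Myc (8.18). Low values on that array were also found for Olr1 (5.18), Perp (8.79), Pfkl (10.40), Pgam1 (12.48), Plac8 (9.52), Prkar1a (11.55), Prkar2b (7.89), S100a4 (11.07), Spred1 (9.15), Spry2 (8.35), Spry4 (6.76), Tgfb3 (8.24), Tnnt2 (6.78), Tpi1 (12.34), Twist2 (7.03) and Vegfc (5.71). On the high side it lay apart for Adamts1 (10.60), Akap12 (8.99), Bex1 (9.20), Cd200 (7.76), Cemip (11.58), Col4a4 (6.90), Dusp10 (9.01), Dusp16 (10.47), Erbb3 (7.78), Fosl2 (11.58), H2-Aa (9.49), Hey2 (5.84), Id4 (8.72), Igfbp2 (11.13), Il11 (7.06) and Kcnt2 (7.24). High values on that array were also found for Lamb2 (9.04), Mfap5 (6.67), Myl9 (12.12), Nrg1 (7.54), Pcsk5 (8.69), Pkia (9.06), Plxdc2 (10.60), Pmaip1 (9.84), Ptprz1 (9.68), Rb1 (10.72), Sema3b (7.51), Sema3d (10.47), Slc2a3 (8.44), Tgfb2 (9.63) and Tjp3 (6.57). Another Ras array stood apart for Fos (array 3, 11.55), Hook1 (array 5, 5.43) and Prkaca (array 4, 10.54). Among the bleo/Neo arrays 24 groups had an array apart, and it was not the same array throughout. On bleo/Neo array 1 this held for Akap12 (9.85), Cdx2 (5.66), Clca3a1 (4.80), Csgalnact1 (5.55), Fas (9.44), H2-Q5 (6.21), Hoxa11 (7.21), Nrp2 (8.16), Perp (11.73), Procr (10.44), Vil1 (4.91) and Zic1 (4.10). On bleo/Neo array 3 this held for Fosl1 (10.07), Hey2 (7.58), Jun (11.59), Kcnk1 (10.28), Slc7a5 (11) and Sqle (9.36). On bleo/Neo array 4 this held for Ccl7 (7.53), Emp1 (11.41) and Epha7 (8.23). On bleo/Neo array 7 this held for Hmga2 (8.11) and Spry4 (6.21). On bleo/Neo array 9 it was Col7a1 (7.17).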

How the results depend on the processing

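Against 5301 called genes, 522 of them at least 2-fold apart, and 1696 past all 3 tests in 1 direction, 1 of the alternatives moved a count by over 1.5 times: a filter at the 75th percentile left 3287, 311 and 1051, over fewer genes tested. Leaving out each Ras or bleo/Neo array in turn gave 5030 to 5578 called genes and 508 to 575 at least 2-fold apart, and leaving out the array labelled Ras 10 gave 2115 past all 3 tests (2168 without the array labelled mp53 10 as well). The replicate block gave 5902, 522 and 2004. Correlations of same-numbered Ras and bleo/Neo deviations ran from -0.02 to 0.56, with 8 of 10 over 0.1 and 5 of 10 Ras arrays best with their own number. The main fit did not take the numbers as pairs, and whether they mark a shared batch was not tested. Of 297 tested genes examined singly, 270 kept their direction and side of the threshold under the alternatives that could be computed for them, and 27 did not. In the text, Eif4ebp1 and Dusp1 no longer passed in a fit of the 20 Ras and bleo/Neo arrays alone, Hspa5 no longer passed with probe sets averaged, and Fcgbp, Hif1a, Vim and Ccng1 passed under some alternatives. Prkar1b, which did not pass, was at -0.22 when all probe sets of a gene were averaged. A bright Prkar1b probe set was at -0.87, and its other bright probe sets ran from -0.14 to 0.03. What sets that probe set apart was not tested. Of 468 list counts 437 stayed within 1.5 times. Probe sets near background limit the low genes, and values near the table minimum have no order.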
